A study of Mus musculus with 12 samples.

Results

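CXC chemokine ligands are small secreted proteins, named for a pair of cysteines with another residue between them, and 10 of them were followed here in sorted mouse tumour macrophages: Cxcl1, Cxcl2, Cxcl3, Cxcl5, Cxcl9, Cxcl10, Cxcl12, Cxcl13, Cxcl14 and Cxcl16. They were chosen by gene name among the array's probes, and 13 of 39429 probes carry their names, out of 31131 gene names in all. They were kept in 3 classes, with 4 neutrophil-attracting ligands (Cxcl1, Cxcl2, Cxcl3 and Cxcl5), 2 interferon-induced ligands (Cxcl9 and Cxcl10) and 4 others. Transcripts were measured on 12 arrays, 6 of YFP+ and 6 of YFP- macrophages, all sorted from pancreas tumours implanted into female C57/B6 mice aged 8 to 10 weeks. The genotype of the animals is labelled as not provided for both groups. The design text of the series names Flt3-Cre/LSL-YFP, KPC and wild-type mice, and a Cre driven by Flt3, a receptor of blood progenitors, would leave a YFP mark in the descendants of cells that once expressed it. The labels give neither the tumour line nor whether animals were pooled. A number in each sample title, written here as tumour 1 to 6, occurs once in each group, and the labels do not say what it stands for. Where nothing says that arrays came from separate animals, the p-values measure the spread between these arrays, which may be technical.

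The ligands bind chemokine receptors on passing leukocytes and set where those cells move. Cxcl1, Cxcl2, Cxcl3 and Cxcl5 signal through Cxcr2 and draw neutrophils, and their transcription is switched on by NF-kappaB after interleukin-1, tumour necrosis factor or microbial products. Cxcl9 and Cxcl10 signal through Cxcr3 on activated T cells and natural killer cells and are induced by interferons. Cxcl12 binds Cxcr4 and Ackr3, Cxcl13 binds Cxcr5 on B cells, and Cxcl16 is a membrane-bound ligand of Cxcr6 that proteases can release. In pancreatic tumours, macrophages, fibroblasts and the carcinoma cells themselves are all known sources of CXC ligands.

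The stretches of sequence that the main results rest on are shown here. The probe is the oligonucleotide on the array that captures a transcript, and the Cxcl5 and Cxcl13 probes are printed because these ligands had the largest differences of the 10. Each is 60 bases long, and its opening 30 bases are given 5′ to 3′ as deposited, with mm9 positions from the array files. The longest run that probes of different members share is 9 bases.
Cxcl5 (chr5:91190490-91190549, + strand): gctgagatatttagatgtctgtagtgtgtc
Cxcl13 (chr5:96389861-96389920, + strand): gatttattgtcttgcattaaaaccagtaac

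RefSeq promoters (build GRCm38.p6) were matched by symbol for 8 of the 10 members, all but Cxcl5 and Cxcl16. The 250 bases before the transcription start were searched on both strands for the NF-kappaB letters GGGANNTTCC (GGAANNTCCC on the other strand) and the interferon-stimulated response element letters GAAANNGAAA (TTTCNNTTTC on the other strand). The NF-kappaB letters occur in 1.21% and the interferon letters in 2.98% of 32851 promoters of that length. Promoters that hold the NF-kappaB letters are printed 5′ to 3′, with matches in capitals.
Cxcl1 (chr5:90890995-90891244, + strand): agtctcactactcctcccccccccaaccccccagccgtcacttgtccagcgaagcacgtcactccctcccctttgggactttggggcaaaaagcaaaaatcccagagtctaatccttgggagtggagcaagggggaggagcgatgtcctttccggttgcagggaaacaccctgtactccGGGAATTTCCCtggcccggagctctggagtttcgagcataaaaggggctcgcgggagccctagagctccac
Cxcl2 (chr5:90903649-90903898, + strand): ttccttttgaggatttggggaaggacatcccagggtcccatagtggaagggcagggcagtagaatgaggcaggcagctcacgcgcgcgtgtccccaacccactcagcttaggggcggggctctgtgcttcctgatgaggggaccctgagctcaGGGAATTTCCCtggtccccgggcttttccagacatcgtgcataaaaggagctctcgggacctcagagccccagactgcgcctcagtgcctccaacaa
Cxcl3 (chr5:90785851-90786100, + strand): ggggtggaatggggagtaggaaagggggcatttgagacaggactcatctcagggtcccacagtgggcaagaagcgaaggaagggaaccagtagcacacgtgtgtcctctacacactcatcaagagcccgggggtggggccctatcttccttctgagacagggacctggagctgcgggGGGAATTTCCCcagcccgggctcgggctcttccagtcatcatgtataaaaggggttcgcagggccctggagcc
Cxcl10 (chr5:92348890-92349139, - strand): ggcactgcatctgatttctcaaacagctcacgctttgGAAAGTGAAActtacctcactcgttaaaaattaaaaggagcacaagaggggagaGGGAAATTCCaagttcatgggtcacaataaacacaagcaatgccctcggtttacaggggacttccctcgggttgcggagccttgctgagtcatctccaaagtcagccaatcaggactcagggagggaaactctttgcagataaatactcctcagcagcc

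Cxcl1, Cxcl2 and Cxcl3 hold the same 11-letter run, GGGAATTTCCC, in which matches on both strands overlap. It lies at bases -71 to -61, -97 to -87 and -73 to -63 before the start of these genes, in that order. Cxcl10 holds NF-kappaB letters at -159 to -150 and interferon letters at -213 to -204. Cxcl14 holds interferon letters at -172 to -163, and Cxcl9, Cxcl12 and Cxcl13 hold neither motif in this window. A match is a string of letters and is not evidence of binding.

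Values are log2 signals relative to each array's 75th percentile, so 0 is that percentile of the array, and a difference of 1 means doubled signal. Probes answer with different efficiency, so levels are compared between groups and not between genes. The unscaled 75th percentile was 3643 ± 280 on the 6 YFP+ arrays and 2631 ± 427 on the 6 YFP- arrays (SD), and 63.4 to 66.3% of spots were well above background on YFP+ arrays, against 61.6 to 64.3% on YFP- arrays. All 10 macrophage markers, among them Csf1r, Adgre1 and Cd68, were above background on every array, and 0 of the 10 were called by limma (Itgam -0.52, adjusted p = 0.68, and C1qc -0.20, adjusted p = 0.74) or had an unadjusted p under 0.05. Among natural killer cell markers, Ncr1 and Nkg7 were above background on all 12 arrays and Klrb1c on 0. The 3 slides each held 2 arrays of each group.

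Cxcl5 signal was lower on YFP+ than on YFP- arrays. Cxcl5 alone among the 10 ligands passed the test with the group alone in the model. Its fitted signal was 9.84-fold lower (log2 difference -3.30), but its probe was above background on 3 of 6 YFP+ arrays, and with normexp background correction the log2 difference was -1.91. Cxcl1, Cxcl2 and Cxcl3, which share its receptor, did not pass the threshold. Among all 20370 genes tested, 288 (1.41%) were called lower and 68 (0.334%) higher in YFP+, by limma with Benjamini-Hochberg adjustment and a threshold of 0.05. Of the 10 ligands 1 was called lower and 0 higher, and 2 had an unadjusted p under 0.05, against 2289 of all 20370 genes. Cxcl9, Cxcl10, Cxcl13, Cxcl14 and Cxcl16 had lower means in YFP+ without passing, and their limma intervals include 0. Cxcl12 also had a lower mean without passing. Its limma interval, which is not adjusted for the number of genes, ran from -1.85 to -0.03. The 6 YFP+ and 6 YFP- values were fully apart for 0 of the 10 ligands and for 383 (1.88%) of all genes. The median difference of the 10 ligands was -0.30, with 8 negative and 2 positive. That of all genes was -0.03, with 10762 negative and 9608 positive. By class of ligand the median was -0.25 for the neutrophil-attracting, -0.30 for the interferon-induced and -0.52 for the other ligands.

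**Figure D1:**
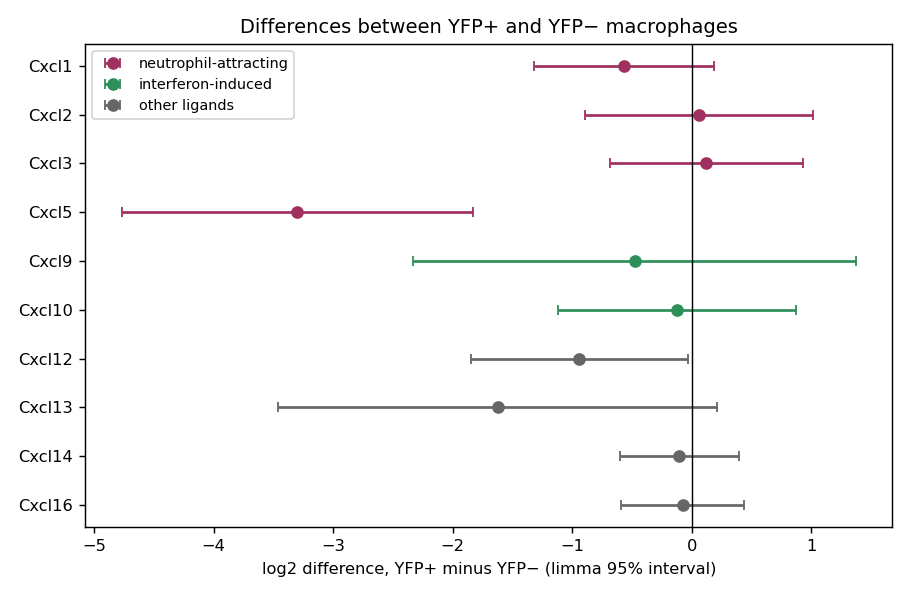
Log2 difference, YFP+ minus YFP-, of the 10 CXC ligands with limma's 95% interval (6 arrays a group), coloured by class. The Cxcl5 interval runs from -4.77 to -1.83, and that of Cxcl2 from -0.89 to 1.01.

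Cxcl5, known as a neutrophil chemoattractant made largely by epithelial and stromal cells, had values of -3.58, -3.17, -6.27, -5.97, -4.77 and -5.61 on the YFP+ arrays of tumours 1 to 6, against 0.03, -1.48, -1.49, -1.58, -1.20 and -3.85 on the YFP- arrays. The groups overlap through a single YFP- array, that of tumour 6, which lies below the YFP+ arrays of tumours 1 and 2. The probe was well above background on 3 of 6 YFP+ arrays (tumours 1, 2 and 5) and on 6 of 6 YFP- arrays, so the size of the difference rests partly on signals near background. The means were -4.89 ± 1.29 over YFP+ arrays and -1.60 ± 1.26 over YFP- arrays (SD, 6 arrays a group). The difference was -3.30 (SE 0.68, limma adjusted p = 0.028), and an exact two-sided permutation test of this gene alone gave p = 0.0065, where the smallest possible is 0.0022. It was negative in 6 of 6 tumours, between -4.78 and -1.68, and within slides it was -1.72, -2.83 and -5.35.

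The Cxcl5 call was near the threshold and depended on single arrays. It was lost in 8 of 12 fits that each left out an array, with YFP+ arrays 3, 4, 5 or 6 or YFP- arrays 1, 2, 3 or 5 removed, while the difference stayed between -3.75 and -2.97 and the adjusted p between 0.0095 and 0.068. With array brightness as a covariate the difference was -3.25 (adjusted p = 0.34), and with normexp background correction it was -1.91 (adjusted p = 0.013). The 75th percentile ran from 3245 to 3910 on YFP+ and from 2100 to 3356 on YFP- arrays. Brightness therefore nearly follows the group, and the fit with this covariate can hardly separate them.

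Some markers of other cell types were also lower on YFP+ than on YFP- arrays. Their relation to Cxcl5 from array to array was not computed. Of 8 epithelial markers 4 were called lower in YFP+ (Krt8 -2.59 and Muc1 -2.31, with Krt18 and Krt19), and the mean level of the list ran from -1.29 to -0.17 on YFP+ and from 0.23 to 1.41 on YFP- arrays, without overlap. Of 10 fibroblast markers 6 were called lower (Postn -2.53, Col3a1 -1.72), with list levels of -1.89 to -1.11 on YFP+ and -0.45 to 1.39 on YFP- arrays. The mean of 7 tested neutrophil markers ran from -2.25 to -0.72 on YFP+ and from -1.13 to 0.09 on YFP- arrays. Of them 6 had negative differences and 1 a positive one (Retnlg 1.71, limma adjusted p = 0.78). By limma 0 were called, with 5 at an unadjusted p under 0.05 (Ltf -1.65, adjusted p = 0.072, and S100a9 -1.67, adjusted p = 0.076). All 4 red cell markers had negative differences and 3 were called lower (among them Hbb-b2 -2.39 and Hbb-b1 -3.64). Levels of the red cell list were -1.68 to 1.49 on YFP+ and 1.63 to 3.76 on YFP- arrays, also without overlap. All 7 acinar markers had negative differences, with a median of -1.59, and 1 was called lower (Cela1 -3.43; Cel had -2.19, adjusted p = 0.27). The part of these cells in the Cxcl5 difference was not tested. Of 7 endothelial, 5 B lineage, 4 T and natural killer cell and 5 dendritic cell markers tested 0 were called, with 0, 3, 0 and 1 at an unadjusted p under 0.05 and medians of 0.39, 0.76, 0.12 and 0.66. The 2 with the smallest p in each were Cdh5 (-0.71, adjusted p = 0.78) and Tek (-0.86, 0.79), Jchain (4.78, 0.17) and Cd79b (0.76, 0.19), Cd3e (0.71, 0.63) and Nkg7 (-0.58, 0.71), and Batf3 (1.19, 0.44) and Cd209a (1.29, 0.45). In bulk samples such as these, fewer cells of a type and less RNA per cell cannot be told apart.

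**Figure D2:**
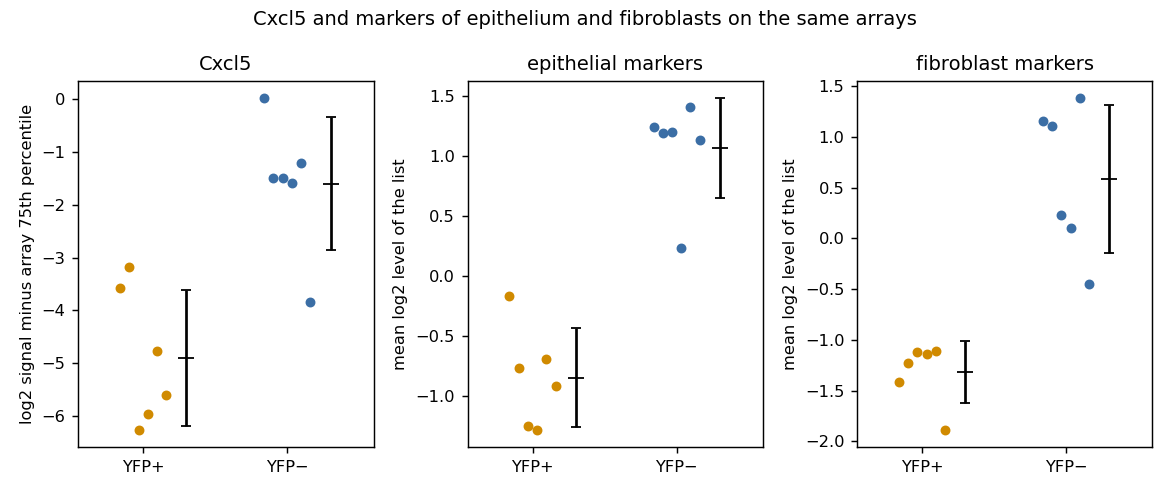
Cxcl5 (left) and the mean log2 level of 8 epithelial (middle) and 10 fibroblast markers (right) on 6 YFP+ and 6 YFP- arrays, relative to each array's 75th percentile; points are arrays and bars mean ± SD. Both marker lists separate the groups, as does the red cell list, which is not drawn. The lowest YFP- value of Cxcl5, -3.85, lies among the YFP+ values.

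The other neutrophil-attracting ligands did not pass the test. Cxcl1, the mouse chemokine also called KC, had a lowest value of 0.03, a median of 1.21 and a highest of 1.95 in YFP+, against 0.995, 1.58 and 2.30 in YFP-. It was lower in YFP+ in 6 of 6 tumours, with differences between -1.28 and -0.13, although the groups overlap over most of their range. The difference was -0.56 (SE 0.35, adjusted p = 0.61, 95% interval -1.32 to 0.19), and within slides it was -0.41, -1.33 and 0.04. Leaving out single arrays kept it between -0.74 and -0.36.

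Cxcl2, also called MIP-2, ran from 0.94 over a median of 2.21 to 3.31 in YFP+ and from 1.05 over 2.36 to 3.08 in YFP-. The groups cover nearly the same range, with 3 tumours higher and 3 lower in YFP+. The difference was 0.06 (SE 0.44, adjusted p = 0.98, 95% interval -0.89 to 1.01), and within slides it was 0.25, -0.50 and 0.43. Cxcl3, a close relative in the same gene cluster, ran from -1.65 over -0.94 to 0.36 in YFP+ and from -1.47 over -1.004 to -0.26 in YFP-. The YFP- range lies within that of YFP+, and again 3 tumours were higher and 3 lower. The difference was 0.12 (SE 0.37, adjusted p = 0.95, 95% interval -0.69 to 0.93), and 0.38, -0.45 and 0.44 within slides.

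The interferon-induced ligands varied more between arrays than between groups. Cxcl9 had a lowest value of -2.52, a median of 1.44 and a highest of 2.54 in YFP+, against -0.94, 1.42 and 2.61 in YFP-. The lowest value of each group is that of tumour 6, and the highest that of tumour 4. The difference was -0.48 (SE 0.85, adjusted p = 0.91, 95% interval -2.33 to 1.37), with 3 tumours in each direction, and -0.61, 0.04 and -0.87 within slides. A second Cxcl9 probe, above background on 5 arrays of each group, gave -0.17 (SE 1.63).

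Cxcl10 ran from -0.01 over a median of 1.82 to 2.41 in YFP+ and from 0.29 over 1.87 to 2.37 in YFP-. Tumour 6 was again lowest and tumour 4 highest in both groups, and the groups overlap almost wholly. The difference was -0.12 (SE 0.46, adjusted p = 0.96, 95% interval -1.12 to 0.87), with slide values of 0.25, -0.75 and 0.13. Its second probe gave -0.62 (SE 0.45, adjusted p = 0.70 over 25434 probes), so the probes share a sign but differ in size. Without both arrays of tumour 6, a choice made after the values were seen, Cxcl9 differed by -0.26 and Cxcl10 by -0.09.

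Of the other ligands, Cxcl12, a product of fibroblasts and other stromal cells that acts through Cxcr4, was low in YFP+ arrays. Its values ran from -3.62 over a median of -2.58 to -1.91 in YFP+ and from -2.73 over -1.52 to -0.48 in YFP-. The YFP- arrays of tumours 2 and 3 lie among the YFP+ arrays, and the remaining 4 lie above all of them. The difference was -0.94 (SE 0.42, limma adjusted p = 0.42, unadjusted 0.043) and the exact permutation p was 0.056. It was negative in 5 of 6 tumours, and within slides it was 0.07, -0.97 and -1.92. The fibroblast marker levels given above were also lower on YFP+ arrays, and their part was not tested. A second Cxcl12 probe was above background on 1 YFP+ and 2 YFP- arrays and was not tested.

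Cxcl13, the B cell attractant, had -4.03, -0.91, -2.72, -0.43, -0.79 and -0.46 on the YFP+ arrays of tumours 1 to 6, against -2.45, 0.47, -1.48, 1.59, 0.33 and 1.94 on the YFP- arrays. Each tumour was lower in YFP+ than in YFP-, with differences between -2.40 and -1.12, but tumours differ from each other by more than the groups do, so the groups overlap. The difference was -1.62 (SE 0.85, limma adjusted p = 0.52, 95% interval -3.46 to 0.21), and -0.91, -2.81 and -1.14 within slides. The exact permutation p was 0.10. With the tumour number as a replicate block in limma, the adjusted p was 0.024. It was 0.064 with slide and replicate block and 0.43 with the tumour number as a random block. The labels do not say what the number stands for.

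Cxcl14, a ligand of skin and mucosal epithelium, ran from 0.27 over a median of 0.74 to 1.09 in YFP+ and from 0.23 over 0.92 to 1.24 in YFP-. The difference was -0.11 (SE 0.23, adjusted p = 0.93, 95% interval -0.60 to 0.39), negative in 4 of 6 tumours, and -0.05, -0.24 and -0.02 within slides. Cxcl16, which macrophages and dendritic cells carry on their surface, ran from 2.69 over 3.53 to 3.63 in YFP+ and from 2.69 over 3.54 to 3.75 in YFP-. Here 5 of 6 arrays of each group lie close together and that of tumour 6 lies below them. The difference was -0.08 (SE 0.24, adjusted p = 0.95, 95% interval -0.59 to 0.44), with slide values of -0.04, -0.15 and -0.03. The sign of both small differences depends on the scaling: with median centring, which moved the median of all genes to 0.18, Cxcl14 differed by 0.10 and Cxcl16 by 0.13, as did Cxcl10 by 0.09.

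**Figure D3:**
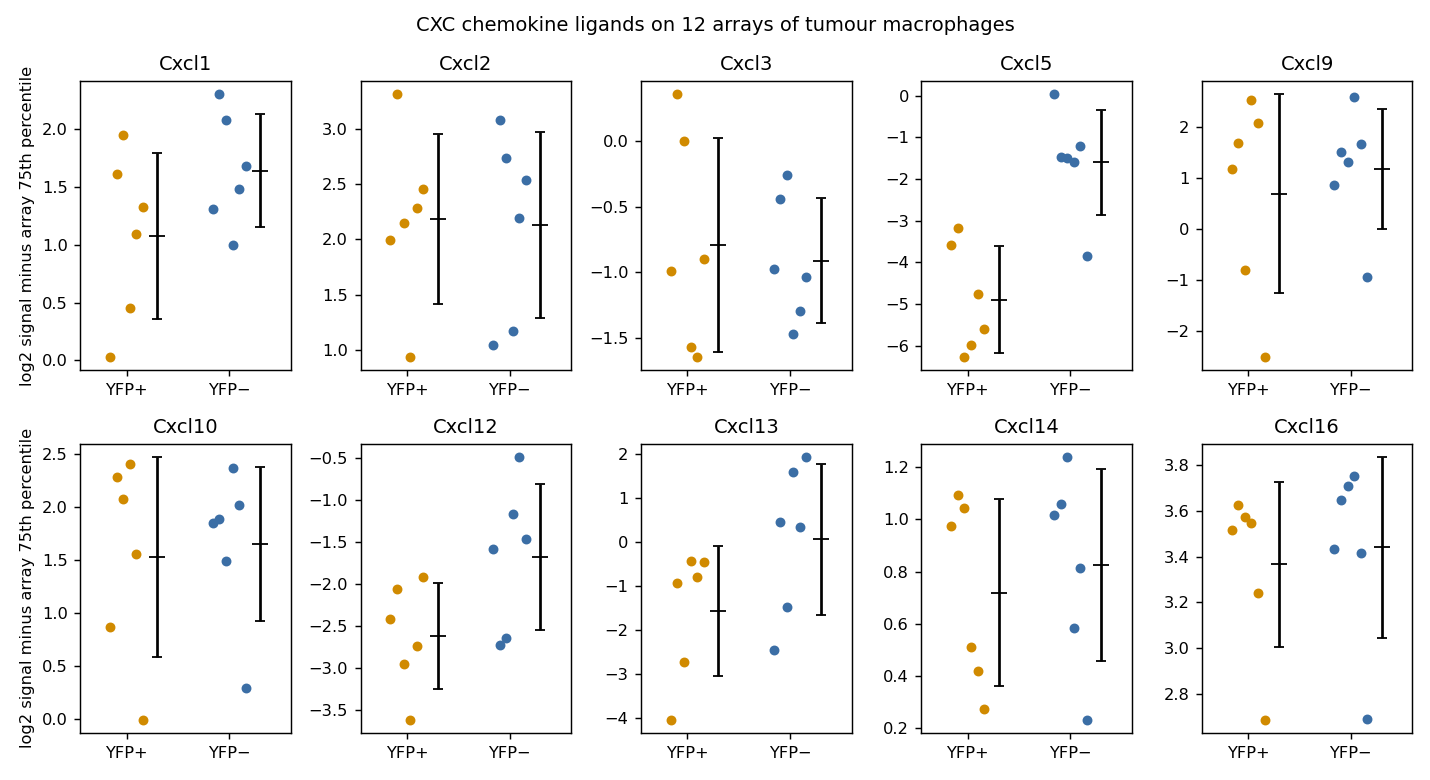
Log2 signal minus the array's 75th percentile of each of the 10 ligands on 6 YFP+ and 6 YFP- arrays; points are arrays, placed from tumour 1 to 6 within a group, bars are mean ± SD, and each panel has its own scale. The groups lie farthest apart for Cxcl5, and tumour 6 is the low array of both groups for Cxcl9, Cxcl10 and Cxcl16.

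Several ligands were high or low together on the YFP+ and YFP- arrays of the same tumour number. This relation was chosen after the values were seen, so it is described without a test. Of each ligand's variation within groups, a part is held by the means of the 2 arrays of a tumour. This part was 97.8% for Cxcl16, 97.7% for Cxcl13, 94.8% for Cxcl14, 91.4% for Cxcl3, 89.6% for Cxcl2, 89.4% for Cxcl1, 88.5% for Cxcl9 and 88.1% for Cxcl10. It was 73.7% for Cxcl5 and 36.8% for Cxcl12. Over all genes the median of this part was 54.2%, and 95% of genes lay under 86.4%. Unrelated arrays also leave much of their variation in the mean of a pair, so the values are read against those of all genes.

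As a correlation between the YFP+ and YFP- arrays over the 6 tumours, computed for each of the 10 ligands, Cxcl13 had Pearson's r of 0.96 and Spearman's rho of 0.89. Its r was 0.94 without the 2 tumours farthest from the median and 0.92 after slide means were removed. Tumours 1 and 3 were low and tumours 4 and 6 high in both groups.

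Cxcl3 had r of 0.95 and rho of 0.83, with r of 0.90 without the 2 farthest tumours and 0.87 after slide means. Cxcl14 had r of 0.90 and rho of 0.89, with 0.86 and 0.85 by the same checks. Cxcl16 had r of 0.96 and rho of 0.77, but r was 0.48 without the 2 farthest tumours and 0.61 after slide means, so it rests on those tumours. Cxcl9 had r of 0.87 and rho of 0.94, with 0.97 without the 2 farthest tumours and 0.12 after slide means. Where both arrays of a tumour share a slide, removing slide means also removes part of what those arrays have in common. The values after slide means therefore cannot separate tumour from slide.

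Cxcl1 had r of 0.85 and rho of 0.89, with r of 0.45 after slide means. Cxcl2 had r of 0.79 and rho of 0.77, with 0.66 after slide means. Cxcl10 had r of 0.79 and rho of 0.71, with 0.21 without the 2 farthest tumours. The lowest values were those of Cxcl5, with r of 0.47 and rho of 0.60, and of Cxcl12, with r of -0.28 and rho of -0.31. A slide holds 2 arrays of a group, too few for a value of its own. Tumours 4, 5 and 6 had both arrays on a common slide and tumours 1, 2 and 3 did not, so tumour and slide are in part confounded.

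**Figure D4:**
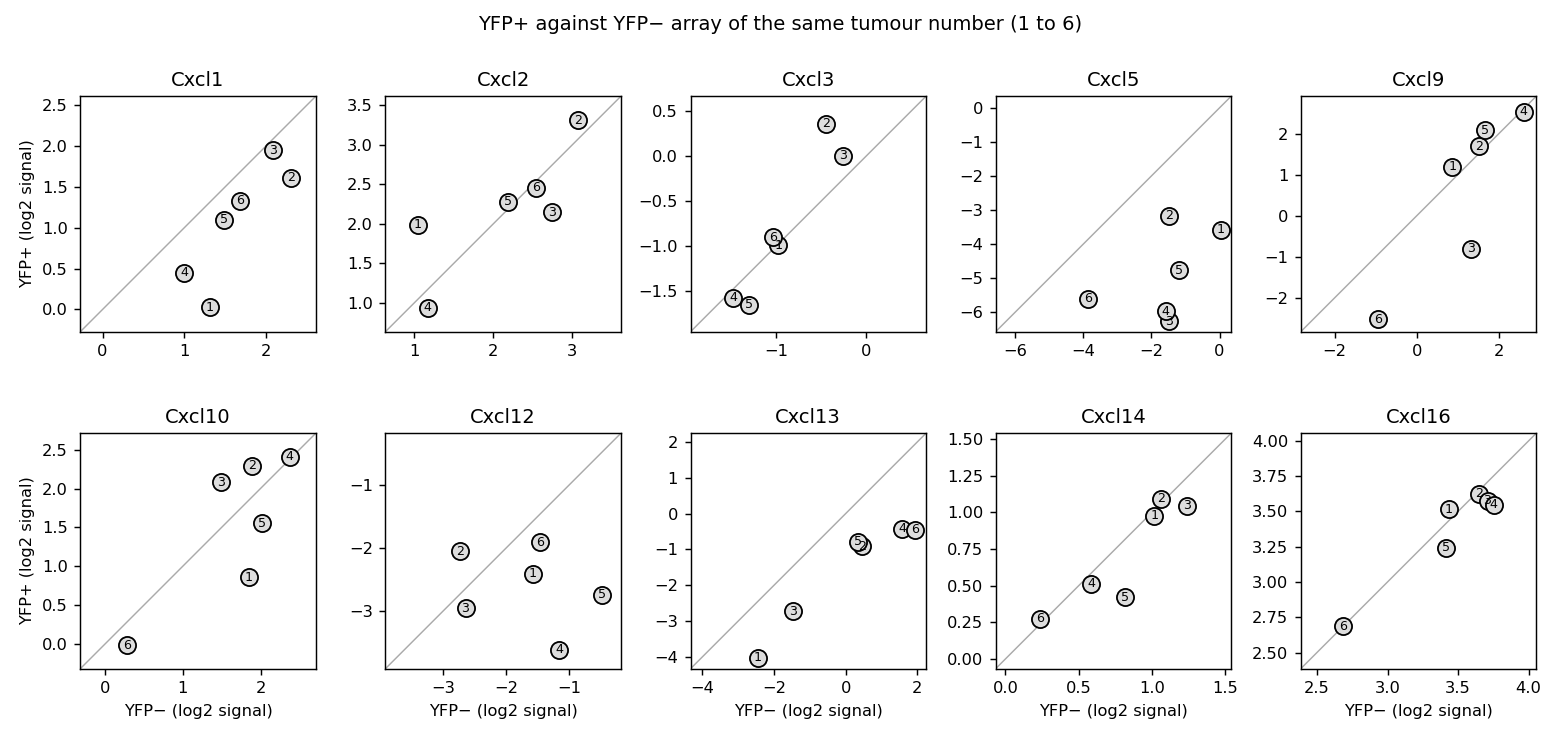
YFP+ array (vertical axis) against the YFP- array (horizontal axis) of the same tumour number for each of the 10 ligands, as log2 signal minus the array's 75th percentile; digits give the tumour and the line marks equal levels. Cxcl13 runs parallel to the line and below it in all 6 tumours. Cxcl5 also lies below it, with Pearson's r of 0.47, and tumour 6 stands alone at the low end for Cxcl16.

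Ligands of a class were also set against each other over the 6 arrays of each group, 14 relations in all, and 0 passed after adjustment. In YFP- arrays Cxcl9 and Cxcl10 had r of 0.95 (permutation p = 0.0097, adjusted 0.097; rho 0.94, p = 0.017), which was 0.30 without the 2 farthest arrays. Cxcl1 and Cxcl2 had r of 0.92 there (permutation p = 0.014, adjusted 0.097; rho 0.94, p = 0.017), which was 0.84 without the 2 farthest. In YFP+ arrays the same pairs had r of 0.67 (permutation p = 0.13; rho 0.71, p = 0.14) and 0.59 (permutation p = 0.22; rho 0.60, p = 0.24). In the 6 relations that hold Cxcl5, r lay between -0.47 and 0.59, with permutation p-values of 0.24 or more and adjusted ones of 0.38 or more.

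Genes with the most similar pattern were sought among 14167 named genes by the correlation of deviations from the group means over the 12 arrays, for 1 member of each class, taken as the one whose probe had the highest mean signal, which does not rank the genes by level. For Cxcl2 they were Vegfa, the vascular growth factor (r = 0.98), Snx18, a membrane-trafficking protein (0.94), and Cd14, the lipopolysaccharide co-receptor (0.94). For Cxcl10 they were Gbp10, an interferon-induced GTPase (0.94), the gap junction protein Gja1 (0.93) and Lactb2 (0.92). For Cxcl16 they were the phosphatidylserine decarboxylase Pisd (0.96), the receptor-modifying protein Ramp3 (0.95) and the tetraspanin Tspan13 (0.94). The arrays share their tumour numbers and slides, so these are descriptions alone.

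Of the receptors, 6 of 8 were tested and 0 were called by limma in either direction, with a median difference of 0.58 and 2 genes, Cxcr6 and Cxcr2, at an unadjusted p under 0.05. Cxcr6, the receptor of Cxcl16 on T and natural killer cells, averaged -2.20 in YFP+ and -4.84 in YFP-, a difference of 2.64 (SE 0.77, adjusted p = 0.14), and was above background on 6 YFP+ and 3 YFP- arrays. Cxcr3, the receptor of Cxcl9 and Cxcl10, averaged -1.33 in YFP+ and -2.78 in YFP- (difference 1.45, SE 0.87, adjusted p = 0.60). The neutrophil receptor Cxcr2 (1.02, adjusted p = 0.15), Cxcr4 (-0.22, adjusted p = 0.77), the decoy receptor Ackr1 (-0.18, adjusted p = 0.90) and the Cxcl12 scavenger Ackr3 (0.15, adjusted p = 0.98) did not pass either. Cxcr1 was above background on 0 YFP+ and 1 YFP- array and Cxcr5, the Cxcl13 receptor, on 3 and 2, and they were not tested.

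Of 5 further CXC ligands, 3 were tested and 0 were called, with 1, Pf4, at an unadjusted p under 0.05. The platelet factor Pf4 differed by -0.43 (SE 0.19, adjusted p = 0.42), Cxcl11, a Cxcr3 ligand that C57BL/6 mice carry with a frameshift, by -0.49 (SE 0.34, adjusted p = 0.67) and the platelet basic protein Ppbp by 0.36 (SE 0.46, adjusted p = 0.86). Cxcl15, of lung epithelium, was above background on 0 arrays and Cxcl17, a mucosal ligand, on 2 YFP+ and 3 YFP- arrays.

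The pathways that drive the ligands gave no call either. Of 19 listed NF-kappaB inducers and feedback genes 17 were tested, with 0 called, 0 at an unadjusted p under 0.05 and a median of 0.16. The subunits Nfkb1 (0.43, adjusted p = 0.62) and Nfkb2 (0.33, adjusted p = 0.68) had the smallest p, and the inducers Il1b (-0.17, adjusted p = 0.89) and Tnf (-0.15, adjusted p = 0.93) lay near 0. Of 21 genes of the interferon axis 19 were tested, with 0 called, 2 at an unadjusted p under 0.05 and a median of -0.05. Ifit3, an interferon-induced antiviral gene, differed by -1.06 (adjusted p = 0.23) and the kinase Jak2 by 0.53 (adjusted p = 0.37), and Ifng itself was above background on 0 arrays. Of 10 proteases that cut CXC ligands 9 were tested, with 0 called, 1 at an unadjusted p under 0.05 and a median of 0.36. Adam17, a sheddase of Cxcl16, differed by 0.55 (adjusted p = 0.43) and cathepsin G, Ctsg, by -1.06 (adjusted p = 0.57).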

How the data were processed

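Sorted YFP+ and YFP- tumour macrophages were measured on 12 arrays. Per the labels' protocols, RNA was amplified as cDNA, and Cy5-labelled product was put on Agilent arrays. The deposited intensity values are, per the file headers, Agilent Feature Extraction 11.5.1.1 processed signals of the red channel, with background subtracted and no scaling between arrays; the files used are of the 4x44K design. The authors also deposited a value table that per its values is on a log2 scale, with equal quantiles across its columns; it was an alternative, and 0 of its columns were unused.

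Control spots (1377) and flagged spots were left out, log2 signals of repeated spots were averaged, and each array's 75th percentile over probes was subtracted. No spot was saturated (0). Probes had to be well above background on 6 or more of 12 arrays (25434 were), each gene took its probe with the highest mean (20370 genes), and in 1611 of 4165 genes with several such probes the probes differed in direction. Names came from the files, updated for 1403 probes through RefSeq accessions (28330 matched, 11099 not).

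YFP+ and YFP- arrays were tested by lmFit and eBayes of limma 3.58.1 (R 4.3.3) with the group alone in the model, p-values adjusted by Benjamini-Hochberg across the whole table, and 0.05 as the threshold. Fold changes are on the log2 scale with limma's standard errors. Single values were tested by exact two-sided permutation. The fit was tested on simulated data for 20370 genes: it called 16 of 100 with a log2 change of 1, 79 of 100 with a change of 3, and 8 of 20170 with none. The number of arrays limits the precision. The members and gene lists were chosen with earlier results of these data known. The named genes were all members, all CXC receptors and other CXC ligands, the called genes (at most 4) or else the 2 with the smallest p in each pathway list, the 2 with the smallest p in each marker list, and the 3 most similar genes for a member of each class. Il1b, Tnf, Ifng, Csf1r, Adgre1, Cd68, Krt18, Krt19, Ncr1, Klrb1c and Retnlg were named outside that rule. Alternatives covered blocks for tumour number and slide, background correction, scaling, filters, probes, variance models, array weights, brightness, single slides and single arrays left out; leaving out both arrays of tumour 6 was added after the data were seen. Python 3.11.15, pandas 2.3.3, numpy 2.4.6, matplotlib 3.10.9, statmod 1.5.0 and, at version 1.17.8, data.table were also used. Macrophages of normal pancreas named in the design text were not analysed here.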

Additional observations from a re-analysis of the deposited data

Results flagged for a closer look

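Cxcl16 on the YFP- array of tumour 6 had a log2 signal of 2.69 and stood apart from the other 5 YFP- arrays. Its gap to the nearest of them was 0.68 of the group's whole range, above Dixon's 95% critical value for 6 samples. This was 1 of 20 groups examined, and chance marks about 1 group in 20. The YFP+ array of tumour 6 also had 2.69.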

How the results depend on the processing

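Cxcl5 kept its call in 14 of 18 settings other than single arrays left out, with adjusted p between 0.013 and 0.045 among those fitted over all genes. It was lost with array brightness as a covariate (-3.25) and on slides 1, 2 and 3 alone (-1.72, -2.83 and -5.35), which hold 2 arrays a group. A filter on all 12 arrays removed Cxcl5 from the test and left 0 ligands called, and the median of the 3 remaining neutrophil-attracting ligands was 0.060. Cxcl13 passed with the tumour number as a replicate block (-1.62, adjusted p = 0.024) but not with slide and replicate block (adjusted p = 0.064) or with the tumour number as a random block (adjusted p = 0.43). The block changed no other call of a ligand; it gave 50 genes higher and 246 lower, and 88 and 343 as a random block (correlation 0.084). Over all genes, correlations of same-numbered arrays were -0.30, 0.11 and -0.13 for tumours 1 to 3, whose arrays lie on different slides. They were 0.37, 0.19 and 0.28 for tumours 4 to 6, whose arrays share a slide. Both arrays of tumours 4 and 6, and the YFP+ array of tumour 5, correlated best with their own number. These correlations cannot separate tumour number from slide, so whether the numbers pair the arrays was not tested.

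Counts of genes higher and lower were 123 and 433 with slide as a block, 33 and 168 with slide and replicate block, 4 and 9 with brightness as a covariate, and 0 and 0 on each slide alone, where fewer arrays were fitted. Normexp gave 451 lower, median centring 116 higher, and a filter on all 12 arrays 40 higher among 15131 genes. The cause was not tested for the others. The neutrophil-attracting median was -0.91 on slide 2. Signs turned for Cxcl16 under quantile normalization (0.020), the deposited table (0.021), median centring (0.13) and brightness (0.19). They turned for Cxcl14 under median centring (0.10) and brightness (0.13), and for Cxcl10 under median centring (0.087) and on slides 1 and 3 (0.25 and 0.13). They also turned for Cxcl9 under brightness (0.76) and on slide 2 (0.043), for Cxcl2 and Cxcl3 on slide 2 (-0.50 and -0.45), for Cxcl12 on slide 1 (0.073) and for Cxcl1 on slide 3 (0.045).

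With each array left out in turn, 37 to 86 genes were higher and 208 to 297 lower. The median ran from -0.48 to -0.0046 for the 10 ligands, from -0.42 to -0.081 for the neutrophil-attracting, from -0.65 to 0.18 for the interferon-induced and from -0.62 to -0.40 for the other ligands. The difference ran from -0.74 to -0.36 for Cxcl1, -0.16 to 0.31 for Cxcl2, -0.11 to 0.29 for Cxcl3, -3.75 to -2.97 for Cxcl5, -0.90 to 0.17 for Cxcl9, -0.39 to 0.19 for Cxcl10, -1.15 to -0.70 for Cxcl12, -2.13 to -1.13 for Cxcl13, -0.22 to -0.016 for Cxcl14 and -0.23 to 0.060 for Cxcl16. Of the lists, median centring, slide as a block and the replicate block each left 0 acinar markers called, the replicate block called 1 neutrophil marker and the slide block 1 B lineage marker.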
